A study of Homo sapiens with 4 samples.

Results

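Genes of the major histocompatibility complex (MHC) class II pathway were examined after knockdown of KDM1A in the human cell line MDA-MB-231, which was established from a triple negative breast cancer. KDM1A, also called LSD1, removes methyl groups from lysine 4 of histone H3. The 10 genes were chosen by name: the class II chains HLA-DRA, HLA-DRB1, HLA-DPA1, HLA-DPB1, HLA-DQA1 and HLA-DQB1, the peptide loading chains HLA-DMA and HLA-DMB, the invariant chain CD74, and the activator CIITA. All 10 were among the 23228 genes listed in the count files, and all 10 passed the filter on low counts that left 14012 genes for testing. No measured value entered that choice, and the list was drawn up with earlier results of these data known.

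The cells were cancer stem cells sorted from the line for aldehyde dehydrogenase activity (ALDEFLUOR) and kept in MammoCult medium, per the labels' protocols. The KDM1A shRNA group (2 libraries) stably expressed a short hairpin RNA against KDM1A from a lentiviral vector, and the control shRNA group (2 libraries) expressed a control hairpin. The labels name no rescue, no interferon treatment and no separate cultures behind the 2 libraries of a group, and the design text speaks only of runs in duplicate. The p-values therefore rest on how far these libraries vary, which may be technical variation alone. Loss of KDM1A, off-target action of a hairpin and differences between stably transduced cultures cannot be told apart.

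Reads assigned to genes numbered 23902900 and 25761937 in the KDM1A shRNA libraries and 26923678 and 24250377 in the control libraries. KDM1A itself had 561 and 649 reads in the KDM1A shRNA libraries, against 4660 and 4059 in the control libraries (log2 fold change -2.81, SE 0.05, edgeR adjusted p = 2.2e-14). Libraries of 1 group were not copies of each other: chi-square over degrees of freedom was 1.62 for the KDM1A shRNA pair and 4.13 for the control pair. Of the receptor genes used to class a cancer as triple negative, the estrogen receptor gene ESR1 had 0 and 1 reads in KDM1A shRNA and 7 and 9 in control libraries. The progesterone receptor gene PGR had 0 and 1 reads against 1 and 1. RNA of ERBB2, also used for this, was measured and rose (log2 fold change 0.41, SE 0.05). No receptor protein was measured here. Of the enzymes behind ALDEFLUOR activity, looked up after their values were seen, ALDH1A1 had 1 and 0 reads in KDM1A shRNA against 0 and 1 in control libraries, and ALDH1A3 had 99 and 134 against 292 and 240. The libraries labelled control stood apart at 9p21, a region that MDA-MB-231 is known to have lost: the summed level of CDKN2A, CDKN2B and MTAP was 1.17 and 1.32 CPM in KDM1A shRNA and 23.2 and 25.4 CPM in control libraries. CPM are read counts relative to library size, scaled by the TMM method. Both control libraries carry this signal, so no comparison can leave it out, and its part in the class II results was not tested.

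MHC class II molecules are pairs of an alpha and a beta chain that present peptides from the endosomal pathway to CD4+ T cells. They are made constitutively by B cells, dendritic cells and macrophages, and many other cells, tumour cells included, make them after exposure to interferon gamma. CD74 fills the groove of newly made molecules, HLA-DM exchanges its remnant for antigenic peptide, and HLA-DO holds HLA-DM back. CIITA does not bind DNA by itself: it docks on a complex of RFX, CREB and NF-Y proteins that sits on the conserved X and Y boxes of these promoters.

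Class II chains, CD74 and CIITA were lower after knockdown by modest amounts, HLA-DMB and HLA-DRA by most and CIITA by least, though HLA-DQA1 had too few reads to be called. Of the 10 genes, 9 fell and 0 rose at an edgeR adjusted p under 0.05, where 28.8% of all 14012 tested genes were called lower and 27.3% higher. The median log2 fold change of the 10 was -0.52, against 0 for all tested genes. In all 10 genes both KDM1A shRNA libraries lay below both control libraries, as they did in 39.6% of tested genes, with the reverse in 38.1%. Together the 10 genes held 0.0811% and 0.0820% of gene reads in the KDM1A shRNA libraries and 0.113% and 0.117% in the control libraries. In bulk RNA a smaller share of cells that make class II and less RNA per cell cannot be told apart.

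The X and Y boxes can be read in the promoters of several of these genes, so the stretches around them are shown for the genes whose changes are described next. RefSeq promoter sequences (GRCh38.p14) were held for 8 of the 10 genes, with HLA-DRA and CIITA not among them. The 250 bases before each start were searched on both strands for an X core, written here as CNAG, 2 bases of any kind and ACNGA, and for CCAAT, the core of the Y box, which reads ATTGG in inverted form. The letters of the X core were settled with these promoters in view, so their presence here is a description. The X core stood in 6 of the 8 genes and CCAAT in 7. An X core followed after 10 to 40 bases by ATTGG stood in 4, namely HLA-DRB1, HLA-DQA1, HLA-DQB1 and HLA-DMA, with gaps of 24 or 25 bases. Of all 35116 RefSeq promoters, 2.59% held the X core, 32.0% held CCAAT, and 13 (0.037%) held the pair, 6 of them class II genes. In the lines below, capitals mark the X core and, where present, the inverted CCAAT; these are reference sequences, not those of the MDA-MB-231 alleles.
HLA-DRB1 (chr6:32589885-32589954, minus strand): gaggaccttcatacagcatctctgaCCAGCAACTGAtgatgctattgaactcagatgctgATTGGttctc
HLA-DQB1 (chr6:32666736-32666805, minus strand): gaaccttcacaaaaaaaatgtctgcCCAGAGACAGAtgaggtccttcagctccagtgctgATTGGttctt
HLA-DQA1 (chr6:32637277-32637347, plus strand): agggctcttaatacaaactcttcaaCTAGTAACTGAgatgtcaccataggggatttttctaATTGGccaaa
HLA-DMA (chr6:32953167-32953237, minus strand): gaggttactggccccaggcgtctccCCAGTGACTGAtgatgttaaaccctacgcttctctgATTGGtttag
HLA-DMB (chr6:32941074-32941143, minus strand): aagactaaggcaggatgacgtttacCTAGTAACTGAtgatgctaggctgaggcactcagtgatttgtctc
HLA-DPA1 (chr6:33073706-33073775, minus strand): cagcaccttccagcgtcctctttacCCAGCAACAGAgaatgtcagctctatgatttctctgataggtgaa
HLA-DOA (chr6:33009649-33009719, minus strand): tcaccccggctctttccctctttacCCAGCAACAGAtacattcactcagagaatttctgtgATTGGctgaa
The 11 letters of the X core were the same in HLA-DQA1 and HLA-DMB and the same in HLA-DPA1 and HLA-DOA. HLA-DPB1 and CD74 held no such letters in this window, which says nothing of what binds there.

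HLA-DRA, the invariable alpha chain of HLA-DR (on the plus strand of chromosome 6, 32407655 to 32412823 in GRCh37), gave 3381 and 3738 reads in the KDM1A shRNA libraries and 6639 and 5742 in the control libraries. That is 141 and 145 CPM against 248 and 237 CPM. The KDM1A shRNA libraries lay close together and well below both controls, at 59.0% of the control mean (log2 fold change -0.76, SE 0.04, edgeR adjusted p = 1.3e-09). HLA-DRB1, its polymorphic beta chain partner (chromosome 6, 32545679 to 32557625, minus strand), had 44.8 and 49.1 CPM in KDM1A shRNA, against 70.5 and 68.7 CPM in control libraries (-0.57, SE 0.06, adjusted p = 1.2e-06). The 2 chains of HLA-DR thus both fell, and the groups did not overlap for either. Of 100-base windows of the HLA-DRB1 transcript 17.2% matched HLA-DRB5 or HLA-DRB6 within 2 mismatches, so reads of these genes may have been exchanged or set aside. With all HLA-DRB rows summed the log2 fold change was -0.55.

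The HLA-DP pair, encoded head to head at the centromeric end of the class II region, also fell. HLA-DPA1 (chromosome 6, 33032346 to 33048552, minus strand) had 80.7 and 85.9 CPM in KDM1A shRNA, against 114 and 115 CPM in control libraries (log2 fold change -0.46, SE 0.05, edgeR adjusted p = 1.3e-06). HLA-DPB1 (chromosome 6, 33043767 to 33057473, plus strand) had 30.6 and 27.4 CPM, against 45.9 and 46.3 CPM (-0.67, SE 0.07, adjusted p = 9.4e-07). The control libraries agreed closely for both chains, and the spread was wider among the KDM1A shRNA libraries. The 2 genes share 96 exonic bases on opposite strands, and whether reads there were told apart depends on the strand setting of the counting, which is not known here.

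HLA-DQ transcripts were few. HLA-DQB1 (chromosome 6, 32627244 to 32636160, minus strand) had 71 and 90 reads in KDM1A shRNA and 138 and 116 in control libraries, or 2.96 and 3.49 CPM against 5.15 and 4.78 CPM (difference of -0.62 on the log2 scale, SE 0.16, edgeR adjusted p = 0.0042). Its groups did not overlap, but DESeq2 did not call it (adjusted p = 0.065). HLA-DQA1 (chromosome 6, 32595956 to 32614839, plus strand) had only 6 and 10 reads in KDM1A shRNA and 11 and 12 in control libraries, and was the 1 gene of the 10 that was not called (-0.48, 95% interval -1.47 to 0.50, adjusted p = 0.39). A difference of the size seen for HLA-DQB1 was not detectable for HLA-DQA1 at this depth. HLA-DQA1 is highly polymorphic, 16.2% of its 100-base windows matched HLA-DQA2 within 2 mismatches, and reads of alleles far from the reference may not align.

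Both chains of HLA-DM, the peptide exchange factor of the loading compartment, fell, and by unequal amounts. HLA-DMB (chromosome 6, 32902406 to 32908805, minus strand) had 234 and 213 reads in KDM1A shRNA and 428 and 380 in control libraries, or 9.77 and 8.25 CPM against 16 and 15.7 CPM. It stood at 57.0% of control, the lowest share of the 10 (log2 fold change -0.82, SE 0.10, edgeR adjusted p = 1.0e-05). HLA-DMA (chromosome 6, 32916390 to 32936871, minus strand) had 31.6 and 32.0 CPM in KDM1A shRNA, against 44.3 and 41.2 CPM in control libraries, 74.3% of control (-0.43, SE 0.06, adjusted p = 4.8e-05). The groups did not overlap for either chain. A readthrough transcript model in the annotation shares 27.3% of the exact 100-base windows of HLA-DMB and 5.03% of those of HLA-DMA. Under its name there, this model is not among the genes that were counted.

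CD74, the chaperone and surface receptor for the cytokine MIF (chromosome 5, 149781200 to 149792532, minus strand), was the most abundant of the 10. It had 10817 and 11620 reads in the KDM1A shRNA libraries and 15200 and 15175 in the control libraries, or 452 and 450 CPM against 568 and 626 CPM. CD74 fell to 75.6% of control (log2 fold change -0.40, SE 0.04, edgeR adjusted p = 1.7e-06), with no overlap. It lies on another chromosome from the HLA genes. It made up 55.8% and 55.0% of the reads of the 10 genes in KDM1A shRNA and 50.2% and 53.3% in control libraries.

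CIITA, the coactivator on which class II transcription depends (chromosome 16, 10960079 to 11036878, plus strand), had 388 and 442 reads in KDM1A shRNA and 530 and 462 in control libraries. That is 16.2 and 17.1 CPM against 19.8 and 19.0 CPM, or 85.8% of control (log2 fold change -0.22, SE 0.08, 95% interval -0.40 to -0.05, edgeR adjusted p = 0.033). The groups did not overlap, but the gap between them was small and the call was fragile. It was lost in DESeq2 (adjusted p = 0.21) and without control library 1 (0.091), KDM1A shRNA library 1 (0.21) or KDM1A shRNA library 2 (0.079). The gene counts pool the transcripts from its alternative promoters. The annotated exons of CIITA share 2424 bases with DEXI on the opposite strand, and DEXI was also lower (-0.35, SE 0.11, adjusted p = 0.015), a call lost in DESeq2 (adjusted p = 0.094) and without KDM1A shRNA library 1 (0.21).

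**Figure D1:**
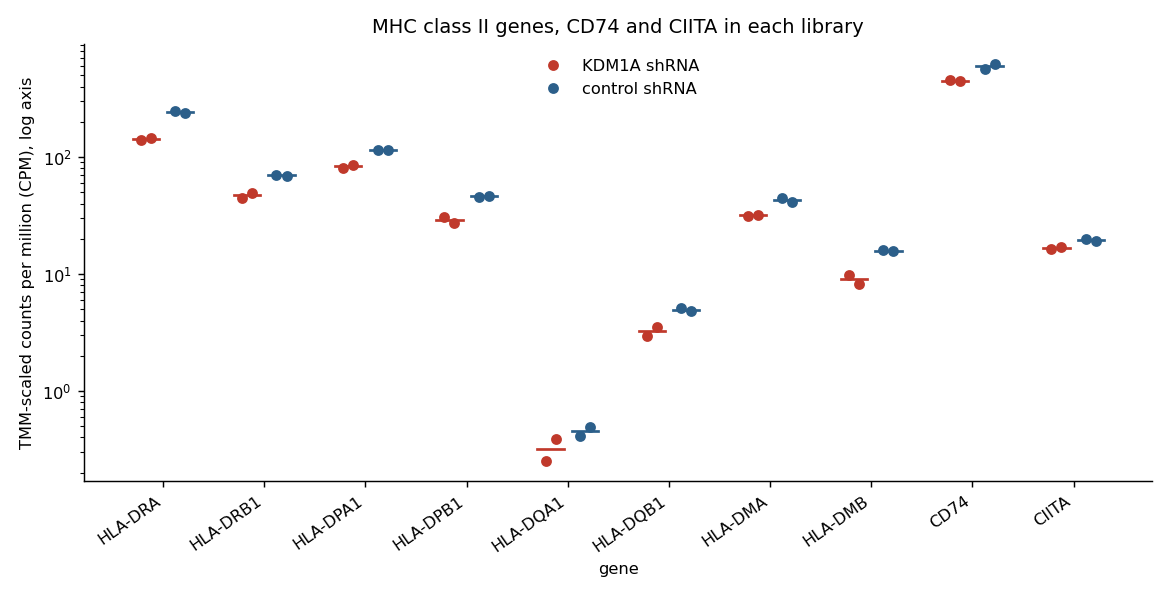
Level of each gene in each library, in TMM-scaled CPM on a log axis; points are the 2 libraries of a group (red, KDM1A shRNA; blue, control shRNA) and bars their mean. For each gene both KDM1A shRNA points lie below both control points, from CD74 (452 and 450 against 568 and 626 CPM) down to HLA-DQA1 (0.251 and 0.388 against 0.411 and 0.495 CPM).

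Levels were compared between genes per kilobase of transcript, using the canonical transcript of GENCODE v44 lifted to GRCh37. CD74 led with 273 ± 0.86 CPM per kb in KDM1A shRNA and 361 ± 25 CPM per kb in control libraries (SD, n = 2 each). HLA-DRA followed with 116 ± 2.3 against 196 ± 6.3 CPM per kb, then HLA-DPA1 with 48.9 ± 2.2 against 67.2 ± 0.41, and HLA-DRB1 with 38.4 ± 2.5 against 56.9 ± 1.0. HLA-DMA came next (29.1 ± 0.26 against 39.1 ± 2.0 CPM per kb). HLA-DMB (6.68 ± 0.80 against 11.8 ± 0.16) and HLA-DPB1 (7.27 ± 0.57 against 11.6 ± 0.071) did not differ from each other beyond their spread. HLA-DQB1 stood at 2.01 ± 0.23 against 3.09 ± 0.16, CIITA at 1.04 ± 0.04 against 1.21 ± 0.035, and HLA-DQA1 at 0.203 ± 0.062 against 0.288 ± 0.038 CPM per kb. The canonical models of CIITA (16061 bases) and HLA-DPB1 (3991 bases) are long. Per kilobase of coding sequence HLA-DPB1 stood higher in the order, at 37.5 CPM in KDM1A shRNA and 59.6 CPM in control libraries, near HLA-DMA at 40.6 and 54.6 CPM. The order CD74, HLA-DRA, HLA-DPA1, HLA-DRB1 at the top, and HLA-DQB1, CIITA, HLA-DQA1 at the bottom, was the same on both scales in the controls. In KDM1A shRNA per coding kilobase CIITA (4.91 CPM) stood above HLA-DQB1 (4.12 CPM).

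Ratios of reads between genes of 1 library do not depend on the scaling of that library, and several differed between the groups. Reads of HLA-DRA per read of CIITA were 8.71 and 8.46 in the KDM1A shRNA libraries and 12.5 and 12.4 in the control libraries. The ratio was lower in both KDM1A shRNA libraries, and the 95% intervals of the log2 fold changes of HLA-DRA and CIITA (-0.85 to -0.67, and -0.40 to -0.05) did not overlap. CD74 per HLA-DRA was 3.20 and 3.11 against 2.29 and 2.64, and HLA-DMA per HLA-DMB was 3.23 and 3.87 against 2.77 and 2.63. CD74 per CIITA differed less, at 27.9 and 26.3 against 28.7 and 32.8. HLA-DRA per HLA-DRB1, the chains of 1 heterodimer, was 3.15 and 2.95 against 3.52 and 3.45. HLA-DQB1 per HLA-DQA1 overlapped between the groups, at 11.8 and 9 against 12.5 and 9.67. Separation of the groups is common here. Of single tested genes, 39.6% had both KDM1A shRNA libraries below both control libraries and 38.1% had both above. The share over all ratios was not computed. With 2 libraries on each side, the smallest p of a two-sided exact permutation test is 0.333, so the ratios were not tested.

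**Figure D2:**
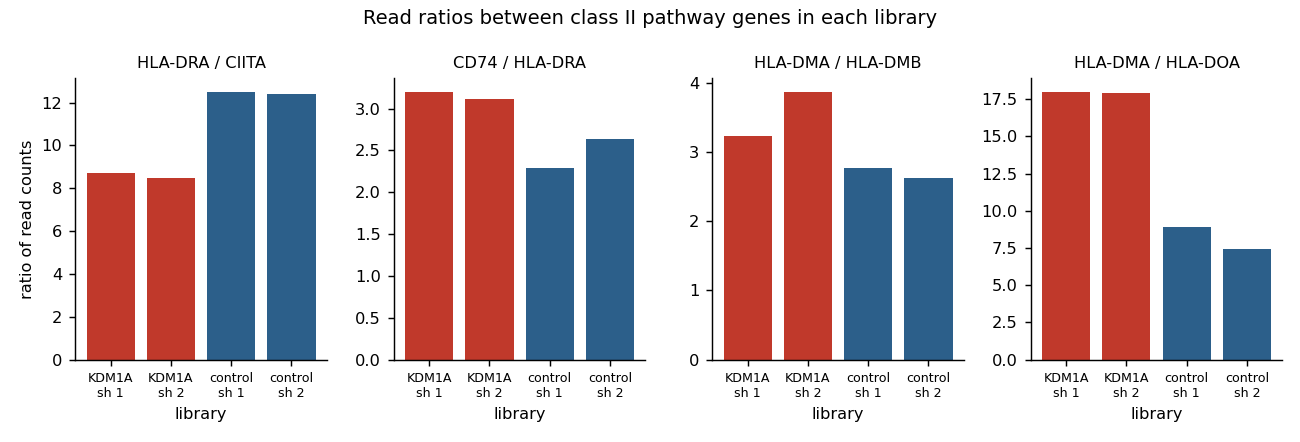
Ratio of the read counts of 2 genes in each of the 4 libraries (red, KDM1A shRNA; blue, control shRNA; bars start at 0). HLA-DRA per CIITA is lower in both KDM1A shRNA libraries (8.71 and 8.46 against 12.5 and 12.4), while CD74 per HLA-DRA, HLA-DMA per HLA-DMB and HLA-DMA per HLA-DOA (18.0 and 17.9 against 8.92 and 7.46) are higher.

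The remaining class II genes covered both the deepest fall and the only rise of the family. Of 9 such genes listed, 5 passed the filter on low counts, and 3 of these fell and 1 rose. Over all tested genes 28.8% were called lower and 27.3% higher. The median log2 fold change of the 5 was -0.41, against 0 for all tested genes. HLA-DOA, a chain of the HLA-DM inhibitor HLA-DO, had 42 and 46 reads in KDM1A shRNA and 133 and 134 in control libraries, or 1.75 and 1.78 CPM against 4.97 and 5.52 CPM (-1.56, SE 0.18, edgeR adjusted p = 3.4e-06). HLA-DOB, its partner chain, had 29 and 32 reads in KDM1A shRNA and 20 and 17 in control libraries (0.75, SE 0.30, adjusted p = 0.042). The groups did not overlap for either chain, and they moved in opposite directions, but the call of HLA-DOB rests on few reads. It was lost in DESeq2 (adjusted p = 0.30), limma-voom (0.051) and the fit with a replicate block (0.056), and without any 1 of the 4 libraries (0.11 to 0.15). HLA-DRB5 fell much like HLA-DRB1, with 16.5 and 15.7 CPM against 23.6 and 24.7 CPM (-0.58, SE 0.08, adjusted p = 1.9e-05). Reads may have been exchanged among the HLA-DRB genes, as given above, so their falls may not be separate. The pseudogene HLA-DRB6 had 8.89 and 6.78 CPM in KDM1A shRNA, against 10.3 and 10.4 CPM in control libraries (-0.41, SE 0.13, adjusted p = 0.014). Without KDM1A shRNA library 2 it was not called (-0.22, adjusted p = 0.24), nor was it by DESeq2 (0.099). HLA-DQB2 was not called (-0.28, SE 0.39, adjusted p = 0.56), HLA-DQA2 had 3 and 5 reads against 11 and 8 and was not tested, and HLA-DRB3, HLA-DRB4 and HLA-DPB2 are listed at 0 in every library.

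The factors that CIITA docks on moved in both directions. Of 8 promoter factors tested, 3 rose and 3 fell (median log2 fold change 0.05), beside 27.3% higher and 28.8% lower among all tested genes. RFXAP, a subunit of the RFX complex, had 105 and 123 reads in KDM1A shRNA and 209 and 182 in control libraries, or 4.38 and 4.77 CPM against 7.8 and 7.5 CPM (-0.74, SE 0.13, edgeR adjusted p = 0.00023), with no overlap. The other RFX subunits did not follow: RFX5, which contacts DNA, rose slightly, with 117 CPM in both KDM1A shRNA libraries against 105 and 107 CPM in control libraries (0.14, SE 0.04, adjusted p = 0.013), and RFXANK was not called (0.05, SE 0.06). The rise of RFX5 was not called in DESeq2 (adjusted p = 0.051), nor without KDM1A shRNA library 1 (0.13) or library 2 (0.12). Of the Y box factor NF-Y, NFYA fell (-0.23, SE 0.04) while NFYC rose (0.30, SE 0.06). NFYB was higher (0.21, SE 0.07, adjusted p = 0.015), a call lost in DESeq2 (0.087) and without control library 2 (0.060), KDM1A shRNA library 1 (0.096) or library 2 (0.078). CREB1, which binds the X box, was not called (0.06, SE 0.06), and ATF1, its relative, fell (-0.32, SE 0.06).

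The interferon gamma pathway, the best known inducer of CIITA, was lower at the receptor, with the transcription factor IRF1 higher. Of 14 tested genes of this list, 8 fell and 2 rose (median log2 fold change -0.24), beside 28.8% lower and 27.3% higher among all tested genes. The receptor chain IFNGR1 had 83.9 and 90.7 CPM in KDM1A shRNA, against 162 and 152 CPM in control libraries (-0.85, SE 0.05, edgeR adjusted p = 3.5e-09). IFNGR2 had 117 and 121 CPM against 180 and 171 CPM (-0.56, SE 0.04), and the receptor kinase JAK1 had 156 CPM in both KDM1A shRNA libraries against 222 and 198 CPM (-0.43, SE 0.05). For these 3 genes both KDM1A shRNA libraries lay below both control libraries, as they did in 39.6% of tested genes. A link between these falls and those of the class II genes was not tested. IRF1, an interferon-induced factor that acts on the interferon-responsive CIITA promoter, had 36.7 and 33.7 CPM against 23.6 and 25.7 CPM (0.51, SE 0.07, adjusted p = 3.2e-05). IRF1 rose, while CIITA did not. JAK2 (-0.27, adjusted p = 0.030) and IRF2 (-0.19, adjusted p = 0.023) were lower, with calls lost without KDM1A shRNA library 1 (0.31 and 0.15) and in DESeq2 (0.17 and 0.16), and for IRF2 also without KDM1A shRNA library 2 (0.11). The phosphatase PTPN2, which restrains the pathway, fell (-0.51, SE 0.05), SOCS1, another inhibitor, was not called (-0.21, SE 0.25), and IFNG, encoding interferon gamma, had 0 reads in every library.

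**Figure D3:**
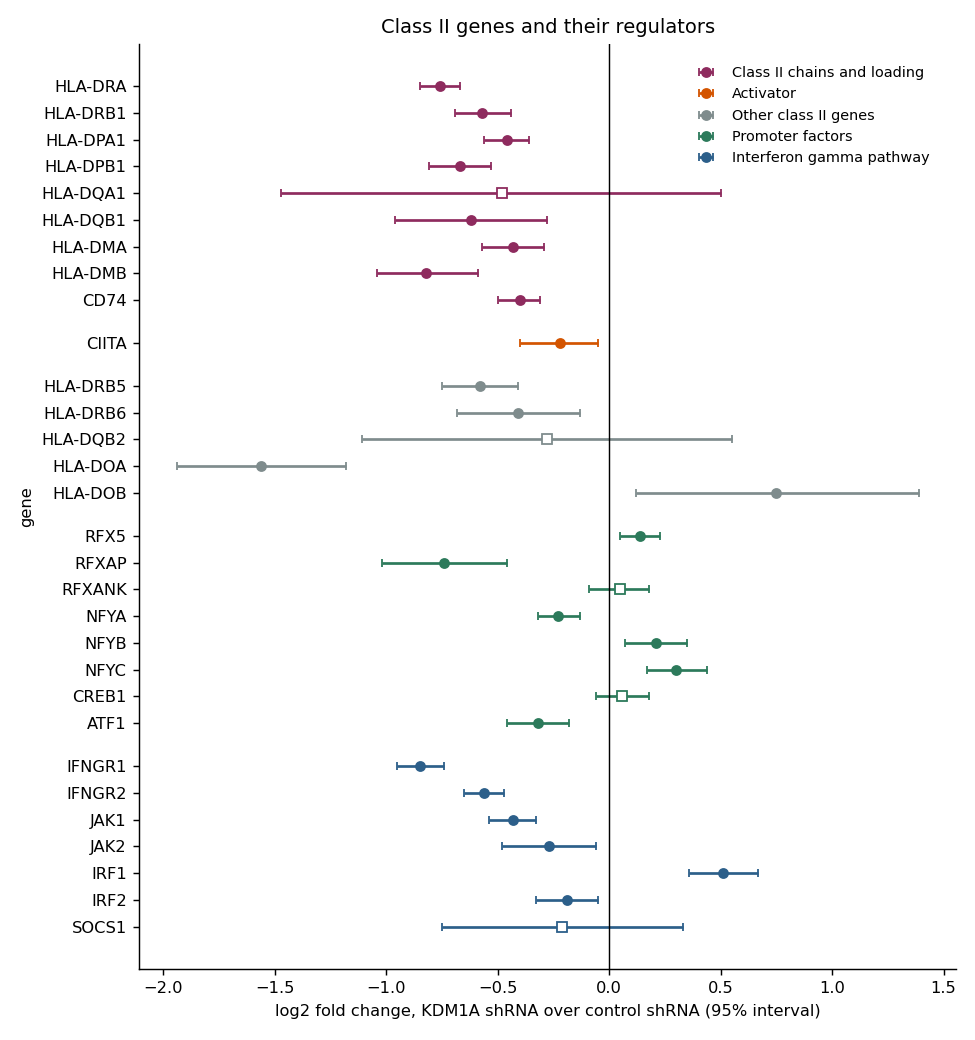
Log2 fold change of class II genes, their activator, other class II genes, promoter factors and interferon gamma pathway genes; bars are 95% intervals of the edgeR fit and open squares genes not called. The called class II chains of the 10 genes lie between -0.43 and -0.82 and CIITA at -0.22. Other called class II genes reach further, with HLA-DOA at -1.56 and HLA-DOB at 0.75, and HLA-DRB6 lies at -0.41. Promoter factors spread from RFXAP at -0.74 to NFYC at 0.30, and IFNGR1 (-0.85) and IRF1 (0.51) move apart.

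Along the class II region of chromosome 6, falls were counted for class II genes and for the genes between and beside them. Of 13 class II genes tested there, 10 fell, 1 rose and 2 were not called (median log2 fold change -0.57), where 28.8% of all tested genes were called lower and 27.3% higher. Those that fell include HLA-DRB1, HLA-DRB5 and HLA-DRB6, among which reads may have been exchanged. Of 5 other genes that lie between HLA-DRA and HLA-DPB1, 1 rose and 2 fell (median 0.06). TAP2, a subunit of the class I peptide transporter that lies beside HLA-DOB, rose (0.42, SE 0.04, edgeR adjusted p = 5.8e-07), and BRD2, a chromatin reader between HLA-DMA and HLA-DOA, fell (-0.30, SE 0.04, adjusted p = 4.2e-06). The exons of BRD2 and HLA-DMA share 55 bases on opposite strands. Beyond the interval on either side 5 of 14 genes fell and 0 rose (median -0.12). The counts of these neighbours that fell lie near the share over all genes. The difference between class II genes and their neighbours was not tested. Around CIITA, 2 of 6 tested neighbours fell, DEXI, with the losses given above, and EMP2 (-0.34, SE 0.04), and CLEC16A was not called (0.07, SE 0.06).

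**Figure D4:**
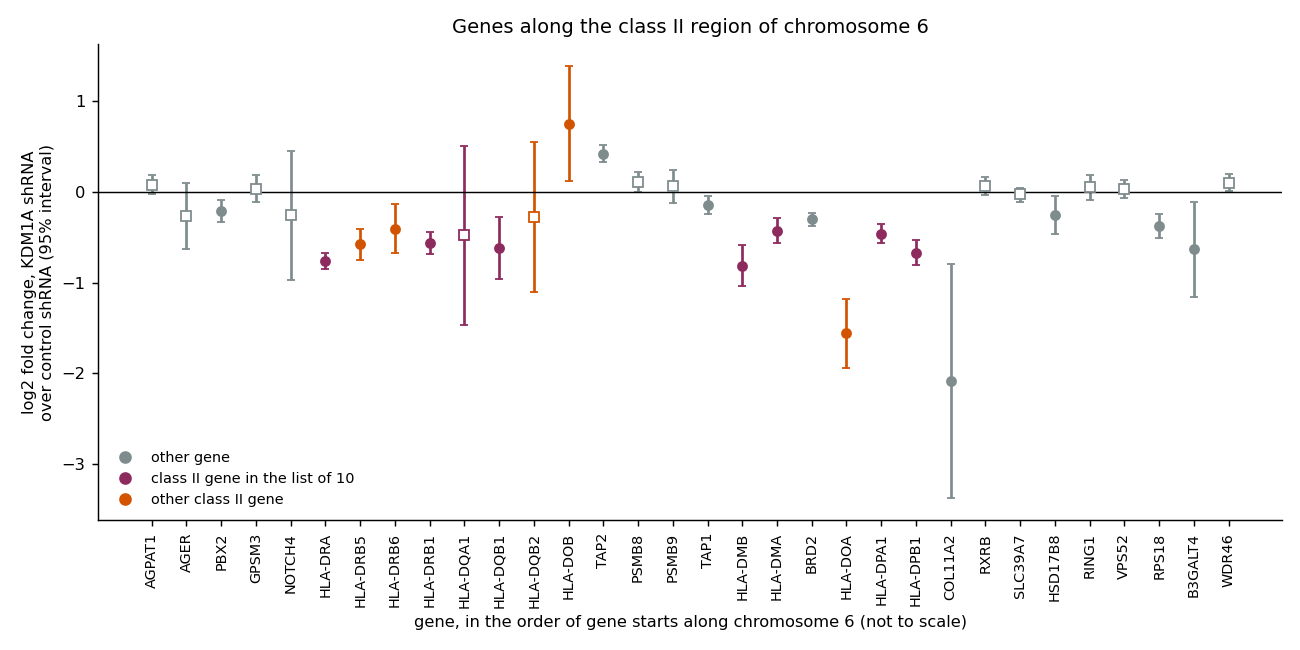
Log2 fold change with its 95% interval for tested genes in the order of their starts along chromosome 6; open squares are genes not called. HLA-DRA at -0.76 and HLA-DPB1 at -0.67 are the outermost class II genes on either side of the interval, and TAP2 at 0.42 lies inside it.

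Genes for class II peptide processing and surface turnover showed no common direction: of 17 tested, 7 fell and 5 rose (median log2 fold change -0.09). The shares over all tested genes were 28.8% lower and 27.3% higher. The endosomal protease CTSD rose, with 1810 and 1840 CPM in KDM1A shRNA against 1190 and 1330 CPM in control libraries (0.54, SE 0.04, edgeR adjusted p = 1.0e-07), as did the thiol reductase IFI30 (0.43, SE 0.06). CTSS, the protease that trims CD74, was not called (-0.09, SE 0.07). The tetraspanins CD82 (-0.57, SE 0.05) and CD63 (-0.25, SE 0.04), which travel with class II molecules, and the protease CTSF (-0.75, SE 0.11) fell. Of 5 tested genes of the CD74 ligand and co-receptor list, 1 rose, the chemokine receptor CXCR7 (0.81, SE 0.18), and 1 fell, CD44 (-0.23, SE 0.04). MIF, the CD74 ligand, had 172 and 195 CPM in KDM1A shRNA and 184 and 236 CPM in control libraries, which overlap (-0.19, SE 0.08, adjusted p = 0.064). MIF was called lower under upper quartile scaling (adjusted p = 0.039) and without KDM1A shRNA library 2 (-0.28, adjusted p = 0.024). It was also called lower with no filter (adjusted p = 5.3e-05), with a replicate block (6.5e-05) and without control library 1 (-0.36), in fits that gave all genes a shared spread and so understate p for a gene as variable as MIF.

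Class I genes had no common direction, with 5 higher and 9 lower of 19 tested (median log2 fold change -0.07). This count and those of the lists that follow stand beside 27.3% higher and 28.8% lower over all tested genes. NLRC5, the class I counterpart of CIITA, had 25.3 and 27.2 CPM in KDM1A shRNA, against 16.6 and 16.9 CPM in control libraries, and rose (0.65, SE 0.08, edgeR adjusted p = 6.1e-06), unlike CIITA. Among costimulatory and checkpoint genes 3 of 11 rose and 5 fell (median -0.12). The adhesion molecule ICAM1 fell (-1.16, SE 0.04) and so did CD40 (-0.36, SE 0.06), while CD274, encoding PD-L1, rose (0.69, SE 0.10). CD80 and CD86, the costimulators of dedicated antigen presenting cells, had at most 1 read in any library. Of 12 listed repressors and chromatin enzymes that could act at CIITA promoters, 5 rose and 5 fell (median -0.02). The methyltransferases EZH2 (0.55, SE 0.05) and DNMT1 (0.48, SE 0.04) rose, and DNMT3A fell (-0.63, SE 0.13). KDM6B, which is no repressor but removes the mark that EZH2 lays down, also fell (-0.60, SE 0.09).

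Most listed markers of blood cells that make class II constitutively had too few reads to be tested. Single genes of these lists, the myeloid markers CD14 and CSF1R among them, passed the filter. Of B cell markers 1 of 8 passed the filter, BANK1, which rose (1.64, SE 0.16). MS4A1 had 0 reads in every library. The summed level of the B cell list was 8.60 and 7.48 CPM against 3.17 and 3.09 CPM, most of it BANK1 (7.72 and 6.74 against 2.24 and 2.39 CPM). The myeloid and dendritic list summed to 8.43 and 9.03 CPM against 7.39 and 8.74 CPM. Of its 12 genes 2 were tested, CD14, which fell (-0.89, SE 0.17), and CSF1R, which rose (1.60, SE 0.18), and CD1C, CLEC9A and FCER1A had 0 reads in every library. The leukocyte and T cell list summed to 1.75 and 1.78 CPM against 2.88 and 3.01 CPM, with the pan-leukocyte gene PTPRC at 4 and 3 reads against 2 and 2, and CORO1A lower (-1.07, SE 0.23). Endothelial genes fell in 4 of 4 tested, KDR among them (-1.11, SE 0.06), where 28.8% of all tested genes were called lower. Their list summed to 54.0 and 56.1 CPM against 102 and 94.7 CPM. Reads were few for VWF (3 and 4 against 24 and 13) and CDH5 (9 and 5 against 21 and 20), and CLDN5 had 0. Of the 4 tested, PECAM1 and CDH5 were not called by DESeq2 (adjusted p = 0.056 and 0.12). Nor was PECAM1 called without KDM1A shRNA library 1 (0.060) or CDH5 without KDM1A shRNA library 2 (0.11). The part of these marker changes in the class II results was not tested. Of 8 genes typical of MDA-MB-231, 6 rose and 2 fell (median 0.28), beside 27.3% higher and 28.8% lower among all tested genes. CAV1 (1.07, SE 0.03) and AXL (0.62, SE 0.03) were among those higher.

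Genes whose pattern over the 4 libraries was closest to 3 of the members were found by Euclidean distance of centred log2 CPM, among genes of similar level. For HLA-DRA these were RAB31, PXDN and DUSP5 (distances 0.0297 to 0.0534 among 2303 genes). For CD74 they were AGRN, SQSTM1 and IFITM3 (0.0308 to 0.0496 among 658 genes), and for CIITA SS18L1, LAYN and ERCC8 (0.0179 to 0.0316 among 3288 genes). None of these 9 genes is a class II gene. With 4 libraries in 2 groups such nearness reflects little more than a like fold change, for example -0.78 for RAB31 beside -0.76 for HLA-DRA.

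Across 14 alternative settings the log2 fold change of each of the 10 genes stayed negative wherever it could be fitted. HLA-DRA ranged from -0.79 to -0.73, HLA-DMB from -0.94 to -0.69, CD74 from -0.47 to -0.33 and CIITA from -0.26 to -0.18.

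**Figure D5:**
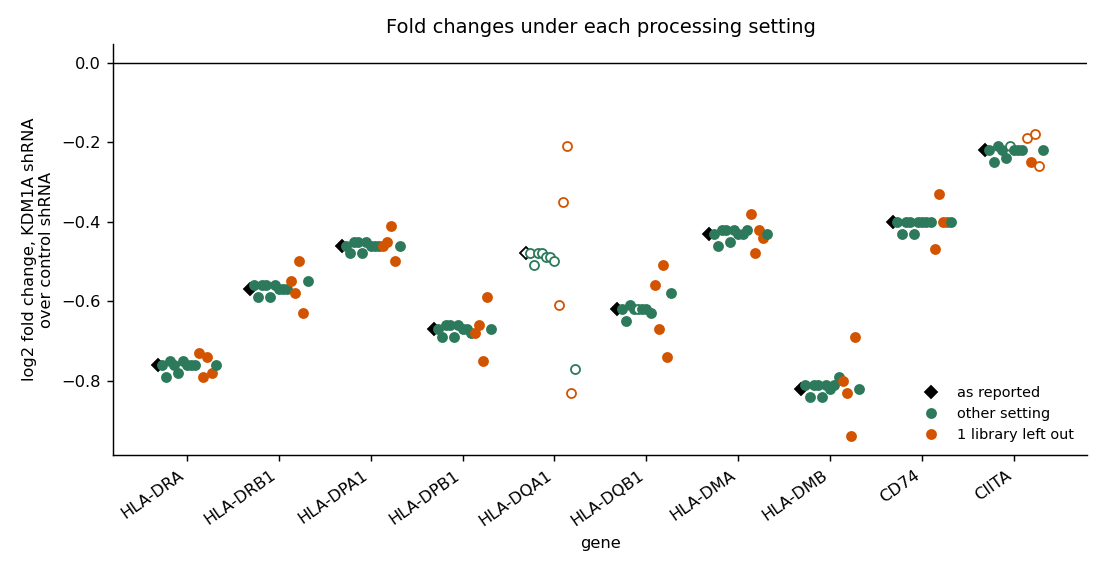
Log2 fold change of each gene as reported (black diamonds), under other settings (green) and with 1 library left out (orange); filled symbols are called at an adjusted p under 0.05. Every symbol lies below 0, HLA-DQA1 spreads most widely (-0.83 to -0.21) and is never called, and CIITA is called in some settings only.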

How the data were processed

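RNA was sequenced from 4 libraries, 2 per group. The authors deposited unnormalized counts of reads for each gene in a separate file for each library. The submitters' processing notes name HTSeq, TopHat2 2.0.8b, CASAVA 1.8.2 and the build hg19, and the design text names DESeq. Not given in the sources used here are the annotation release, the strand setting and any alternative MHC haplotypes in the index. The summary lines of HTSeq were left out. They put 29.7% to 32.2% of the total in alignments that were not unique, 8.21% to 8.61% outside genes and 0.587% to 0.593% over more than 1 gene. A gene at 0 reads could have up to 3 counts, or 0.112 to 0.125 CPM, for counting error only.

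The test was edgeR's quasi-likelihood F-test (edgeR 4.0.16, R 4.3.3) on group alone, after TMM scaling and filterByExpr (minimum count 10, minimum total 15), with Benjamini-Hochberg adjustment over 14012 genes at 0.05. SE is the absolute log2 fold change over the square root of F. The script was tested on simulated data. Alternatives were RLE, upper quartile and no scaling, no filter or a minimum mean of 5 CPM, DESeq2 1.42.0, limma-voom (limma 3.58.1), a replicate block, thinned counts, paralogs summed, and each library left out. The 10 members and 17 gene lists were chosen with earlier results of these data known. Named genes are KDM1A, the members, the tested genes of smallest p in each list (up to 4), a fixed set of regulators and the nearest genes in pattern among genes of similar level. ESR1, PGR, ALDH1A1, ALDH1A3, CD80, CD86 and MS4A1 fall outside that rule and were named after their values were seen. The same holds for CD1C, CLEC9A, FCER1A, PTPRC, CLDN5, HLA-DRB3, HLA-DRB4 and HLA-DPB2. Positions and lengths are from GENCODE v44 lifted to GRCh37, the build of hg19. Some genes of the lists are not reported here.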

Additional observations from a re-analysis of the deposited data

How the results depend on the processing

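Of the 10 genes, 7 to 9 were called lower and 0 higher under each of the 14 alternatives, with 8 or 9 called lower when 1 library was left out. With paralogs summed, HLA-DQA1 and HLA-DQA2 together gave -0.77 (adjusted p = 0.091). HLA-DQA1 could not be fitted with a minimum mean of 5 CPM or with thinned counts, and HLA-DQB1 not with that minimum. In 4 of the alternatives (no filter, the replicate block, and without control library 1 or 2) edgeR estimated an infinite prior df, so all genes took a shared spread and calls kept there say little about the replicate variation of single genes. The other 10 gave 7 to 9 of the 10 genes lower, and those 4 gave 8 or 9. Over all genes the calls ranged from 2832 to 4042 higher and from 3044 to 4401 lower, each within 1.5 times the reported count. The upper quartile scaling moved the median of all genes by less than 0.1 on the log2 scale, and under it 3490 genes were higher and 4401 lower. CREB1, which was not called, ranged from -0.00 without control library 1 (adjusted p = 0.98) to 0.12 without control library 2 (adjusted p = 0.031), both with that shared spread; the cause was not tested. Deviations of same-numbered libraries correlated with r = 0.0152 across genes, so no pairing by replicate number was seen. The labels do not say whether same-numbered libraries were handled together, and counting noise could hide a small shared effect. With a replicate block 9 of the 10 genes were again called lower, with 3978 genes higher and 4164 lower in all. With 1 library left out, the lone library of a group is assumed to vary like the other group. Depth limits HLA-DQA1 and HLA-DOB, with at most 32 reads in any library.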
